A study of Mus musculus with 6 samples.

Results

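Heparan sulfate is a sulfated sugar chain carried by core proteins at the cell surface and in the basement membrane, and 36 genes for the enzymes that build, modify and trim it and for its membrane core proteins were examined in the embryonic mouse submandibular gland. The genes were taken by symbol from a deposited table of 24067 genes, where all 36 were found as 1 row each. They cover the start of the chain (4 genes), its elongation (5), N-sulfation and epimerization (5), O-sulfation (9), removal of sulfate or chain (3), syndecans (4) and glypicans (6). The tissue was E13 (embryonic day 13) gland of the ICR strain, sequenced as 3 blebbistatin-treated and 3 control libraries. Blebbistatin, a cell-permeable inhibitor, blocks the motor of non-muscle myosin II. Epithelial buds are named in the series title, while the tissue field names the gland. Dose, duration, vehicle and glands per library are not stated in the labels. Nor do the labels say that replicates were separate cultures. The p-values therefore set each group difference only against the spread among these libraries, and that spread may be technical.

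The chain is started on a serine of the core protein by xylosyltransferases and extended by the EXT enzymes. NDST enzymes, the epimerase GLCE and the O-sulfotransferases then set the sulfation pattern that growth factors recognise. Endosulfatases of the SULF family remove 6-O-sulfate outside the cell, and heparanase cuts the chain. In the mouse submandibular gland, heparan sulfate is a co-receptor for FGF signalling through FGFR2b, which drives branching of the epithelial end buds. Heparanase is known there to release FGF10 from perlecan, and 3-O-sulfated chains made by HS3ST3A1 and HS3ST3B1 are known to favour FGFR2b signalling and the expansion of Kit-positive progenitors.

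Levels are given as FPKM, the authors' fragments per kilobase of transcript scaled to the mapped fragments of the library, which can be compared between genes because they are per length. From the smallest values of long genes with a single transcript, where 1 fragment has a fixed value, the depth was estimated at 27800000 to 28500000 fragments in the blebbistatin libraries and 28400000 to 33900000 in the controls. Between libraries, Pearson's r over the 11540 genes tested was 0.971 to 0.983, a correlation across genes, which are not independent replicates. The 7 epithelial markers, Epcam and Cdh1 among them, summed to 1243 to 1525 FPKM in blebbistatin libraries and 1351 to 1716 FPKM in controls. The 10 mesenchymal markers summed to 4.41 to 9.44 FPKM in blebbistatin libraries and 5.75 to 22.0 FPKM in controls, with the highest sum in control replicate 1 and the lowest in blebbistatin replicate 1, and 4 of the 10 had a mean of at least 1 FPKM. The sums in blebbistatin and control libraries were 0.802 to 0.961 and 0.549 to 0.681 FPKM for 6 endothelial markers, 1.099 to 2.48 and 0.458 to 2.66 for 6 neuronal, 9.24 to 11.2 and 8.76 to 10.8 for 4 Schwann cell, 2.01 to 4.11 and 2.90 to 3.42 for 5 leukocyte, and 0.0313 to 0.0966 and 0.277 to 2.21 for 5 skeletal muscle markers. Pecam1 and Tek made up most of the endothelial sums and had higher means in blebbistatin libraries than in controls. The other endothelial markers, Cdh5, Kdr, Tie1 and Emcn, were barely detected and had lower means in blebbistatin libraries. None of the endothelial markers was tested. No marker of any list was at 0 in all 6 libraries.

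Most of the pathway was expressed in these libraries. A mean of at least 1 FPKM over the 6 libraries was reached by 29 of the 36 genes, and these were tested. The other 7, Xylt1, Ndst3, Ndst4, Hs3st2, Hs6st3, Hpse and Gpc5, were below it in both groups. Ndst4 was listed at 0 in all 6 libraries, and Ndst3, Hs3st2, Hs6st3 and Gpc5 never exceeded an estimated 4 fragments in a library. Per length, glypicans had the highest summed level, at 455 ± 42.8 FPKM in blebbistatin libraries and 479 ± 27.7 in controls (SD, n = 3), and syndecans followed at 221 ± 14.5 and 223 ± 12.8 FPKM. The sum over O-sulfotransferases was 159 ± 6.83 FPKM in blebbistatin libraries and 168 ± 2.53 in controls, and that over elongation enzymes was 122 ± 2.37 and 118 ± 6.80 FPKM.

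**Figure D1:**
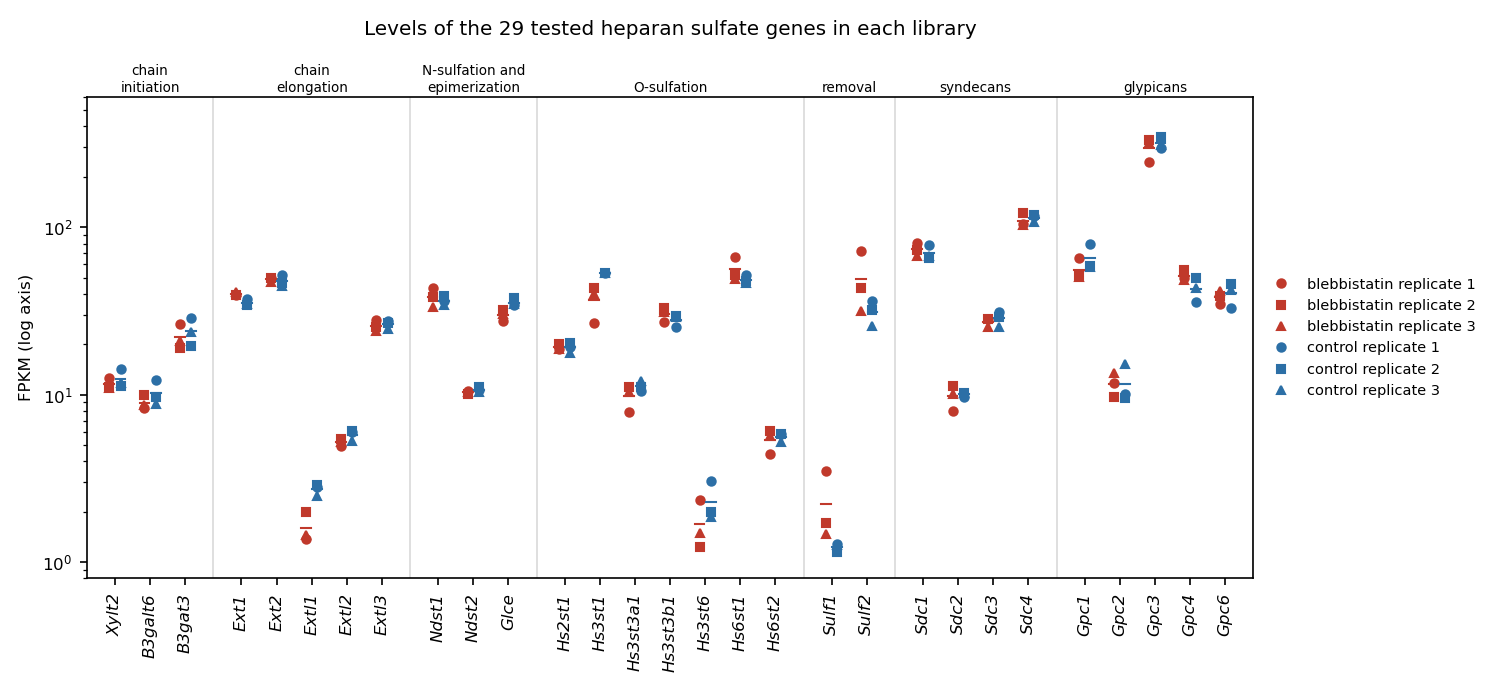
FPKM on a log axis for each of the 29 tested heparan sulfate genes, grouped by role, with 1 point per library, blebbistatin in red to the left and control in blue to the right, and a bar at each group mean. Gpc3 is the highest gene of the set, Extl1, Glce and Hs3st1 lie lower in all 3 blebbistatin libraries than in any control, and the blebbistatin replicate 1 points of Sulf1 and Sulf2 stand far above the rest.

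None of the 29 genes passed an adjusted p of 0.05 (limma on log2(FPKM + 1), Benjamini-Hochberg over 11540 genes). The smallest adjusted p among them was 0.163, for Extl1. Over all genes 9 passed, which is 0.078% of those tested. At an unadjusted p under 0.05 there were 3 members, all lower with blebbistatin (Extl1, Hs3st1 and Glce), a share of 10.3% beside 9.36% over all genes. The 3 blebbistatin values did not overlap with the 3 control values for 5 of the 29 genes (17.2%), beside 14.3% over all genes. Of these, 3 were lower (6.8% of all genes were) and 2 were higher, Ext1 and Sulf1 (7.48% of all genes were). Means were higher for 10 of the 29 and lower for 19 (65.5% lower, beside 44.8% of all genes). The median log2 fold change of the 29 was -0.05, beside 0.01 over all genes tested. The share at an unadjusted p under 0.05 in this fit, and the share without overlap, thus lay near those of the whole table. Lower means were more frequent than over all genes, a difference that was not tested. With same-numbered libraries compared in a replicate block, 10 of the 29 had an unadjusted p under 0.05 (34.5%, beside 16.3% of all genes, limma). The labels do not say that the numbers pair libraries. None of the members described below passed the adjusted threshold.

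**Figure D2:**
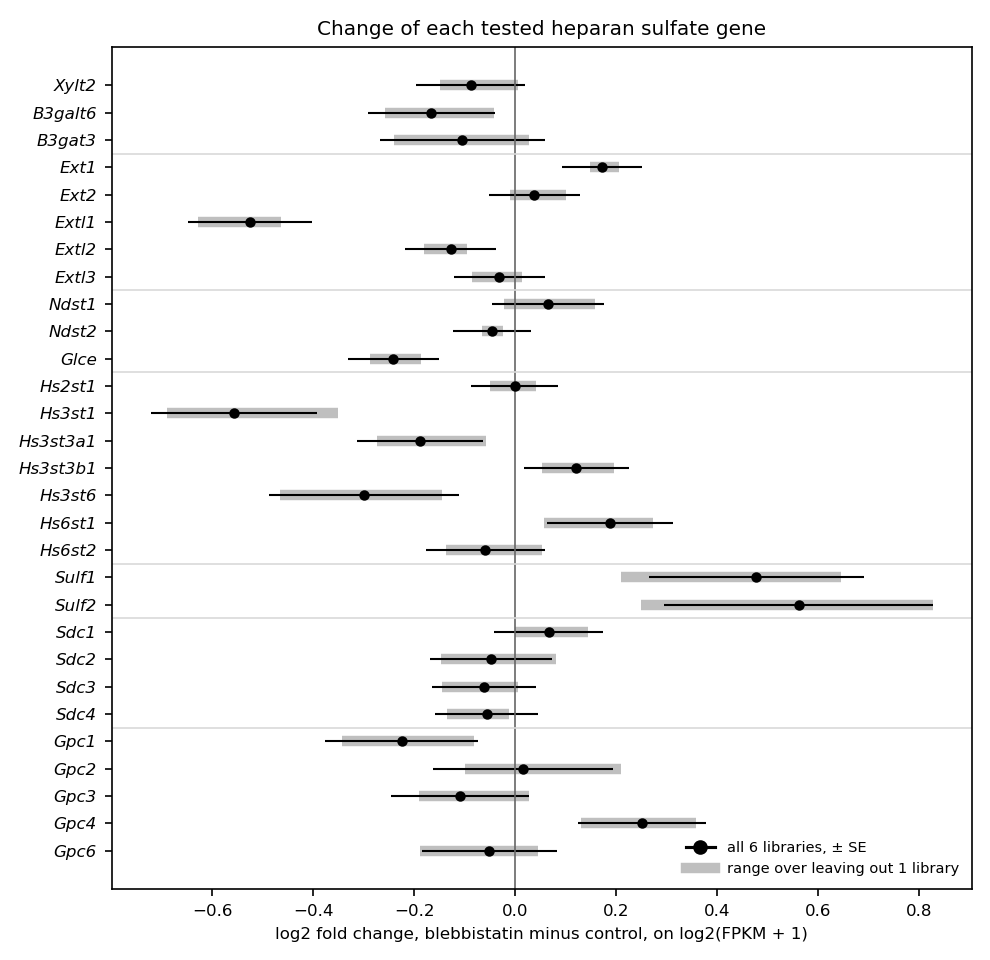
Log2 fold change (blebbistatin minus control, on log2(FPKM + 1)) of the 29 tested genes in the order of their roles, with points and thin bars for the estimate from all 6 libraries ± SE and grey bars for the range when 1 library at a time is left out. Extl1 and Hs3st1 lie furthest below 0, at -0.52 and -0.56, and the grey bars of Sulf1 and Sulf2 are wide.

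The enzymes that start the chain had lower means with blebbistatin for all 3 tested genes, each within the spread of the libraries. B3gat3, the glucuronosyltransferase that completes the linker sugars, had the highest level of the class, with 26.6, 19.0 and 21.0 FPKM in blebbistatin libraries and 28.6, 19.4 and 23.8 FPKM in controls. In both groups replicate 1 was the highest, and the groups overlapped (log2 fold change -0.10 ± 0.16, SE, adjusted p = 0.986, limma). B3galt6, the galactosyltransferase of the step before, had 8.38, 9.91 and 8.66 FPKM in blebbistatin libraries and 12.3, 9.72 and 8.83 FPKM in controls (log2 fold change -0.17 ± 0.13, adjusted p = 0.862, limma). Control replicate 1 stood above the others, and without it the log2 fold change was -0.04. Of the xylosyltransferases, Xylt2 averaged 11.6 ± 0.92 FPKM in blebbistatin libraries and 12.4 ± 1.57 in controls, and Xylt1 averaged 0.472 ± 0.031 and 0.487 ± 0.14 FPKM (SD, n = 3).

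Among the elongation enzymes, 1 gene, Extl1, stood lower and 1, Ext1, slightly higher in every blebbistatin library. Ext1, a subunit of the polymerase, had 39.6, 39.6 and 40.9 FPKM in blebbistatin libraries and 37.1, 34.2 and 34.9 FPKM in controls. Every blebbistatin library was above every control, but the step was small (log2 fold change 0.17 ± 0.08, SE, adjusted p = 0.576, limma), and Ext1 was singled out here after its values were seen. Its partner Ext2 had 50.03, 49.7 and 47.5 FPKM in blebbistatin libraries and 52.1, 46.8 and 44.6 FPKM in controls, which overlapped (log2 fold change 0.04 ± 0.09, adjusted p = 0.994, limma).

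Extl1, an EXT-like enzyme with N-acetylglucosamine transferase activity, had the smallest p of the 29 genes tested. It stood at 1.38, 1.99 and 1.45 FPKM in blebbistatin libraries and at 2.81, 2.90 and 2.49 FPKM in controls, or 161 to 233 and 293 to 405 estimated fragments. The groups did not overlap, and the blebbistatin mean was 0.587 of the control mean. The log2 fold change was -0.52 ± 0.12 (SE, 95% confidence interval -0.81 to -0.24, unadjusted p = 0.00257, adjusted p = 0.163, limma), and -0.75 with a pseudocount of 0.1. It was lower whichever library was left out, from -0.63 to -0.46. The related Extl2 and Extl3 averaged 5.20 ± 0.24 and 25.8 ± 1.87 FPKM in blebbistatin libraries, against 5.78 ± 0.42 and 26.4 ± 1.46 FPKM in controls, with overlapping values. The summed level of the 5 elongation genes overlapped between the groups, and Extl1 made up 1.32% of it in blebbistatin libraries and 2.31% in controls.

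Of the enzymes that modify the backbone, the epimerase stood apart and the N-sulfotransferases did not. Glce, which turns glucuronic acid into iduronic acid and so prepares the chain for 2-O-sulfation, had 27.7, 32.0 and 30.2 FPKM in blebbistatin libraries and 34.3, 37.6 and 34.8 FPKM in controls. The highest blebbistatin value lay under the lowest control value. The log2 fold change was -0.24 ± 0.09 (SE, 95% confidence interval -0.45 to -0.03, unadjusted p = 0.0272, adjusted p = 0.408, limma). Leaving out blebbistatin replicate 1 gave an unadjusted p of 0.102 (limma). It was 0.0648 when blebbistatin replicate 3 was omitted and 0.0838 when control replicate 2 was. Ndst1, the N-deacetylase and N-sulfotransferase with the highest level in the gland, had 43.3, 38.6 and 33.5 FPKM in blebbistatin libraries and 36.2, 38.9 and 34.6 FPKM in controls. The blebbistatin values spanned those of the controls (log2 fold change 0.07 ± 0.11, 95% confidence interval -0.19 to 0.32, adjusted p = 0.987, limma), and the sign turned without blebbistatin replicate 1 (-0.022). Ndst2 averaged 10.4 ± 0.23 FPKM in blebbistatin libraries and 10.8 ± 0.34 in controls.

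Among the 3-O-sulfotransferases, Hs3st1 stood lower in every blebbistatin library and the HS3ST3 pair overlapped between the groups. Hs3st1, the enzyme known for making the antithrombin-binding form of the chain, had 26.7, 43.4 and 39.8 FPKM in blebbistatin libraries and 53.2, 53.4 and 53.2 FPKM in controls. All blebbistatin values lay below the controls, which hardly varied among themselves (SD 0.11, against 8.78 in blebbistatin libraries). The blebbistatin mean was 0.688 of the control mean, with a log2 fold change of -0.56 ± 0.16 (SE, 95% confidence interval -0.94 to -0.18, unadjusted p = 0.00937, adjusted p = 0.267, limma). Blebbistatin replicate 1 was the lowest library, and without it the log2 fold change was -0.35 ± 0.10 (adjusted p = 0.364, limma).

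The HS3ST3 pair, whose product is the form tied to FGFR2b signalling in this gland, overlapped in level. Hs3st3b1 had 27.4, 33.2 and 31.1 FPKM in blebbistatin libraries and 25.4, 29.6 and 29.1 FPKM in controls (log2 fold change 0.12 ± 0.10, SE, adjusted p = 0.911, limma). Hs3st3a1 had 7.94, 11.1 and 10.4 FPKM in blebbistatin libraries and 10.5, 11.1 and 12.0 FPKM in controls (log2 fold change -0.19 ± 0.12, adjusted p = 0.811, limma). Blebbistatin replicate 1 was the lowest library for Hs3st3a1, and without it the log2 fold change was -0.06. Control replicate 1 was the lowest for Hs3st3b1, and without it the log2 fold change was 0.05.

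How fragments were divided between these paralogs is uncertain, because their transcripts share an identical run of 401 bases in the coding part of the second exon. The run lies at chr11:64520310-64520710 on the plus strand for Hs3st3a1 and at chr11:63889233-63889633 on the minus strand for Hs3st3b1 (GRCm38, the assembly of mm10, with GENCODE M21 transcripts). The sequences below show where it begins, with 30 bases before it in lower case and the first 60 bases of the identical run in capitals, at chr11:64520280-64520369 and chr11:63889574-63889663.
Hs3st3a1: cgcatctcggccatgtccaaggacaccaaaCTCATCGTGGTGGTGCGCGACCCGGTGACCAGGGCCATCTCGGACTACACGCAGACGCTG
Hs3st3b1: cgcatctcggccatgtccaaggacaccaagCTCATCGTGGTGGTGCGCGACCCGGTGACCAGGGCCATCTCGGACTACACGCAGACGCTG
Of all stretches of 50 bases in the Hs3st3a1 transcript, 10.7% also occur in Hs3st3b1, and 8.56% the other way. Among the 630 pairs of the 36 genes, 3 pairs share any such stretch, and in the other two pairs, Ndst3 with Ndst4 and Hs6st2 with Hs6st3, they number 7 and 3. The sum of both HS3ST3 genes does not depend on the division to the same degree, and was 35.3, 44.2 and 41.6 FPKM in blebbistatin libraries and 35.9, 40.7 and 41.1 FPKM in controls. Exons of Hs3st3a1 also overlap those of F930015N05Rik on the opposite strand. That gene averaged 4.81 ± 0.54 FPKM in blebbistatin libraries and 6.19 ± 0.33 in controls (SD, n = 3). Its groups did not overlap (log2 fold change -0.31 ± 0.10, SE, adjusted p = 0.309, limma). Strandedness is not stated in the labels, so fragments of F930015N05Rik and of Hs3st3a1 may not be told apart in the overlapping exons.

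Within the family, Hs3st1 supplied 46.1 ± 4.03% of the summed 3-O-sulfotransferase FPKM in blebbistatin libraries and 56.2 ± 1.32% in controls (SD, n = 3), while Hs3st3b1 supplied 39.1 ± 2.93% and 29.5 ± 1.73%. The sum itself was 64.4, 88.8 and 82.9 FPKM in blebbistatin libraries and 92.1, 96.1 and 96.3 FPKM in controls, which did not overlap. Hs3st6 had 2.34, 1.24 and 1.497 FPKM in blebbistatin libraries and 3.04, 2.00 and 1.87 FPKM in controls, with overlapping values. These shares were computed after the single genes had been seen and were not tested.

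**Figure D3:**
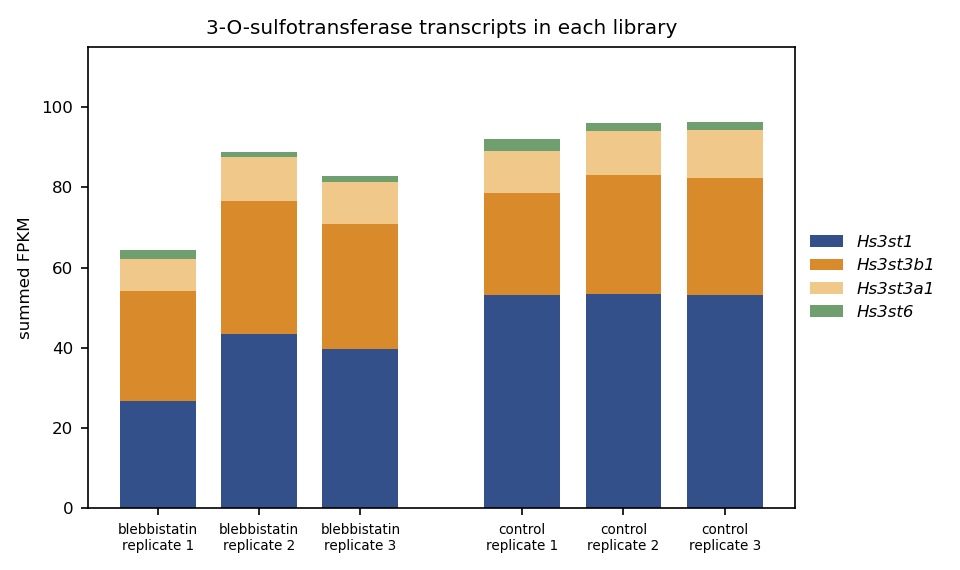
Summed FPKM of the 3-O-sulfotransferases in each library, blebbistatin on the left and control on the right, with the parts of Hs3st1, Hs3st3b1, Hs3st3a1 and Hs3st6 stacked. The Hs3st1 part is at 53.2 to 53.4 FPKM in every control and at 26.7 to 43.4 FPKM in the blebbistatin libraries, and the summed parts of the HS3ST3 pair overlap between the groups.

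The other O-sulfotransferases differed by less than their spread. Hs6st1, the main 6-O-sulfotransferase of the libraries, had 66.8, 52.1 and 49.3 FPKM in blebbistatin libraries and 51.9, 48.0 and 46.2 FPKM in controls. Blebbistatin replicate 1 stood highest, replicate 2 was level with the highest control and replicate 3 lay among the controls (log2 fold change 0.19 ± 0.12, SE, adjusted p = 0.812, limma). Without blebbistatin replicate 1 the log2 fold change was 0.06. Hs2st1, the single 2-O-sulfotransferase, averaged 19.2 ± 0.82 FPKM in blebbistatin libraries and 19.2 ± 1.29 in controls, with a 95% confidence interval of the log2 fold change of -0.20 to 0.20. Hs6st2 averaged 5.38 ± 0.85 and 5.61 ± 0.37 FPKM. Its 4672 nt transcript made up 91.2, 72.6 and 42.6% of the gene in blebbistatin libraries and 81.0, 72.3 and 79.1% in controls, so that the blebbistatin libraries ranged to both sides of the controls (share difference -8.65 percentage points, adjusted p = 1.00, limma).

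The endosulfatases had the largest positive estimates of the 29 genes, and the size of both, though not their sign, rested mainly on 1 library. Sulf2, by far the more abundant, had 72.0, 43.5 and 31.8 FPKM in blebbistatin libraries and 36.2, 32.3 and 25.8 FPKM in controls. Blebbistatin replicates 1 and 2 lay above all controls, and replicate 3 lay below control replicates 1 and 2. Each blebbistatin value lay above that of the control with the same number, though the numbers are not stated to pair libraries. The log2 fold change was 0.56 ± 0.27 (SE, 95% confidence interval -0.05 to 1.17, adjusted p = 0.593, limma) and 0.25 ± 0.18 without blebbistatin replicate 1 (adjusted p = 0.893, limma). Sulf1 had 3.51, 1.71 and 1.47 FPKM in blebbistatin libraries and 1.29, 1.15 and 1.26 FPKM in controls. The groups did not overlap, and the log2 fold change was 0.48 ± 0.21 (adjusted p = 0.554, limma), or 0.21 ± 0.12 without blebbistatin replicate 1 (adjusted p = 0.814, limma). The summed mesenchymal markers were lowest in blebbistatin replicate 1, at 4.41 FPKM, where Sulf1 and Sulf2 were highest. They were highest in control replicate 1, at 22.0 FPKM, where Sulf1 and Sulf2 were the highest of the controls. A link between these values was not tested.

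Most of the Sulf2 level came from a pair of annotated transcripts. The 3790 nt transcript had 50.8, 30.7 and 24.9 FPKM in blebbistatin libraries and 26.8, 20.3 and 20.6 FPKM in controls (log2 fold change 0.58 ± 0.25, SE, adjusted p = 0.616, limma). It made up 70.5, 70.7 and 78.2% of the gene in blebbistatin libraries and 74.0, 62.9 and 80.0% in controls, which overlapped (adjusted p = 1.00, limma on shares). The 3948 nt transcript had 20.8, 12.4 and 6.92 FPKM in blebbistatin libraries and 9.43, 12.0 and 5.16 FPKM in controls. Over all 14460 transcripts tested, 1 passed (0.00692%), and it was not of a member. None of the 4997 transcript shares tested passed (0%), and of the 7 shares that belong to members none had an unadjusted p under 0.05.

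Hpse, the heparanase, was low, with 0.406, 0.3002 and 0.178 FPKM in blebbistatin libraries and 0.266, 0.252 and 0.183 FPKM in controls, or 15.2 to 35.5 and 16.2 to 26.4 estimated fragments. The groups overlapped, and Hpse was not tested.

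Syndecans, the transmembrane core proteins, were close to equal in the 2 groups. Sdc4 was the highest, with 105, 122 and 103 FPKM in blebbistatin libraries and 116, 118 and 107 FPKM in controls (log2 fold change -0.06 ± 0.10, SE, 95% confidence interval -0.29 to 0.18, adjusted p = 0.989, limma). Sdc1, the typical syndecan of epithelia, had 81.0, 73.1 and 67.7 FPKM in blebbistatin libraries and 78.5, 66.0 and 67.3 FPKM in controls (log2 fold change 0.07 ± 0.11, 95% confidence interval -0.18 to 0.31, adjusted p = 0.987, limma). The intervals of all 4 syndecans lay between -0.33 and 0.31 on the log2 scale. Sdc3 averaged 27.3 ± 1.72 FPKM in blebbistatin libraries and 28.6 ± 3.07 in controls, and Sdc2 averaged 9.79 ± 1.68 and 10.1 ± 0.33 FPKM.

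Glypicans, which are held by a lipid anchor, were led by Gpc3, which supplied 65.2 ± 4.39% of their summed FPKM in blebbistatin libraries and 66.4 ± 1.26% in controls. Gpc3 had 244, 331 and 318 FPKM in blebbistatin libraries and 299, 346 and 311 FPKM in controls, and blebbistatin replicate 1 was the lowest of the 6 (log2 fold change -0.11 ± 0.14, SE, adjusted p = 0.980, limma). Without that library the log2 fold change was 0.03. Gpc4 had 49.7, 55.3 and 48.4 FPKM in blebbistatin libraries and 36.02, 49.7 and 43.6 FPKM in controls, overlapping only through control replicate 2 (log2 fold change 0.25 ± 0.13, adjusted p = 0.637, limma). Without control replicate 1 it was 0.13. Gpc1 averaged 55.8 ± 8.35 FPKM in blebbistatin libraries and 65.6 ± 12.0 in controls, Gpc6 38.6 ± 3.46 and 40.3 ± 6.69 FPKM, and Gpc2 11.6 ± 1.86 and 11.6 ± 3.13 FPKM, all with overlap.

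Blebbistatin replicate 1 held an end position more often for these genes than over the table. It was the highest or the lowest of the 6 libraries for 15 of the 29 genes (51.7%), beside 33.6% of all genes tested. The next was control replicate 2 with 12 genes (41.4%, beside 30.3%), and control replicate 1 had 10 (34.5%, beside 49.9%). It was the lowest library for B3galt6, Extl1, Extl2, Glce, Hs3st1, Hs3st3a1, Hs6st2, Sdc2 and Gpc3, and the highest for Extl3, Ndst1, Hs6st1, Sulf1, Sulf2 and Sdc1. Its summed mesenchymal markers were the lowest of the 6 libraries, and the part of this in the values above was not tested.

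**Figure D4:**
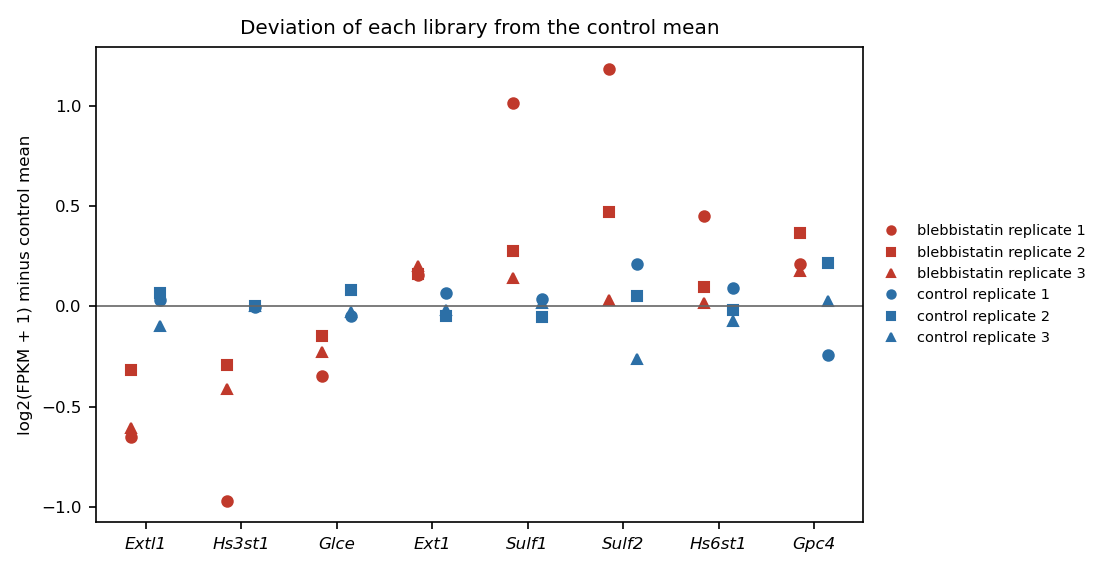
Deviation of log2(FPKM + 1) from the control mean in each library for 8 genes, with blebbistatin in red to the left and control in blue to the right, and 1 marker shape per replicate number. Blebbistatin replicate 1 lies farthest from 0 for Extl1, Hs3st1, Glce, Sulf1, Sulf2 and Hs6st1, whereas for Ext1 the 3 blebbistatin libraries lie close together.

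Related lists were read in the same fit, and no gene in any of them passed over all genes. The lists were chosen with earlier results of these data known, and their shares were not tested against those of all genes. Of 13 tested genes for chondroitin and dermatan sulfate, the sister chains built on the same linker, means were higher for 7 and lower for 6 (median log2 fold change 0.02). An unadjusted p under 0.05 was found for 2 of the 13 (15.4%, beside 9.36% of all genes), both lower and both sulfotransferases. Chst12, a chondroitin 4-O-sulfotransferase, had 6.39, 9.16 and 7.55 FPKM in blebbistatin libraries and 10.3, 10.5 and 9.84 FPKM in controls (log2 fold change -0.38 ± 0.12, SE, adjusted p = 0.306, limma), and Chst3, a chondroitin 6-O-sulfotransferase, had 2.49, 2.56 and 2.47 FPKM in blebbistatin libraries and 3.32, 3.28 and 2.98 FPKM in controls (-0.26 ± 0.09, adjusted p = 0.379, limma). The groups did not overlap for 3 of the 13 (23.1%, beside 14.3%), these 2 and Csgalnact1, named after its values were seen. Csgalnact1, which starts the chondroitin chain, was higher, with 1.44, 1.24 and 1.38 FPKM in blebbistatin libraries and 0.893, 0.935 and 1.17 FPKM in controls (0.23 ± 0.11, adjusted p = 0.613, limma). Of 9 tested genes for precursor supply, 4 had higher means (median log2 fold change -0.01), and Uxs1, which makes UDP-xylose, had 22.3, 22.1 and 21.9 FPKM in blebbistatin libraries and 21.0, 20.3 and 19.0 FPKM in controls (0.13 ± 0.08, adjusted p = 0.774, limma).

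Lysosomal enzymes that break the chain down had lower means for 8 of 9 genes (88.9%, beside 44.8% of all genes), with small differences (median log2 fold change -0.06, range -0.16 to 0.0008). The smallest p was that of Gusb, the beta-glucuronidase, with 10.4, 10.6 and 9.31 FPKM in blebbistatin libraries and 12.7, 10.9 and 10.4 FPKM in controls (-0.15 ± 0.10, SE, adjusted p = 0.804, limma), and its log2 fold change was -0.08 without control replicate 1. Of 5 tested secreted or part-time core proteins, 3 had higher means (median 0.07). Nrp1, a semaphorin and VEGF receptor that can carry the chain, had 2.16, 1.21 and 0.902 FPKM in blebbistatin libraries and 0.954, 0.861 and 0.680 FPKM in controls, again highest in blebbistatin replicate 1 (0.37 ± 0.19, adjusted p = 0.641, limma). Without that library its log2 fold change was 0.17. Of the remaining linker and heparan sulfate genes 3 of 6 were tested (median 0.01), and Pxylp1, the phosphatase that acts on the linker xylose, had 2.55, 2.48 and 2.50 FPKM in blebbistatin libraries and 2.42, 2.30 and 2.24 FPKM in controls (0.08 ± 0.09, adjusted p = 0.970, limma).

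FGF signalling, which uses heparan sulfate as co-receptor, was read from 12 tested genes of 16. Means were higher for 7 and lower for 5 (median log2 fold change 0.02), and the groups did not overlap for 6 (50%, beside 14.3% of all genes), 4 higher and 2 lower. An unadjusted p under 0.05 was found for 4 of the 12 (33.3%, beside 9.36%), Fgf1, Fgfr2 and Fgfr3 with higher and Etv5 with lower means. These shares were not tested against those of all genes, and this list too was chosen with earlier results of these data known. Fgf1 had 16.6, 19.7 and 20.2 FPKM in blebbistatin libraries and 13.3, 13.8 and 16.1 FPKM in controls (0.36 ± 0.11, SE, adjusted p = 0.275, limma). The receptor Fgfr3 had 3.94, 2.42 and 3.40 FPKM in blebbistatin libraries and 2.06, 1.70 and 2.32 FPKM in controls (0.48 ± 0.15, adjusted p = 0.307, limma). Etv5, a transcription factor induced by FGF signalling, had 132, 185 and 174 FPKM in blebbistatin libraries and 211, 241 and 202 FPKM in controls (-0.43 ± 0.14, adjusted p = 0.342, limma). As with Hs3st1, blebbistatin replicate 1 was the lowest library for Etv5, and without it the log2 fold change was -0.28. Of the other target genes, means were lower for Etv4, Dusp6, Spry4 and Spred2 and higher for Spry1, Spry2 and Spred1. Etv4 had 60.4, 75.3 and 74.9 FPKM in blebbistatin libraries and 79.4, 82.5 and 86.7 FPKM in controls (-0.24 ± 0.11, adjusted p = 0.556, limma). Spry1 had 108, 106 and 99.2 FPKM in blebbistatin libraries and 96.6, 94.0 and 90.3 FPKM in controls (0.16 ± 0.09, adjusted p = 0.691, limma). The groups did not overlap for either gene. Fgfr2, singled out after its values were seen, averaged 44.0 ± 3.48 FPKM in blebbistatin libraries and 37.0 ± 1.81 in controls (SD, n = 3). Fgf10, which the gland's mesenchyme makes, lay between 0.0116 and 0.0656 FPKM in blebbistatin libraries and between 0.0572 and 0.0786 FPKM in controls. Kit, the marker of end bud progenitors, had 5.38, 16.3 and 16.2 FPKM in blebbistatin libraries and 21.5, 36.4 and 32.6 FPKM in controls, a difference that did not pass (-1.30 ± 0.38, SE, adjusted p = 0.259, limma). Blebbistatin replicate 1 was the lowest library for Kit as well, far below the other blebbistatin libraries. In bulk libraries, fewer cells of a type and less RNA per cell cannot be told apart.

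On mm10, as in the deposited annotation, Extl1 lies on chromosome 4 from 134356373 to 134372547 (minus strand), Hs3st1 on chromosome 5 from 39613935 to 39644631 (minus) and Glce on chromosome 9 from 62057249 to 62070606 (minus). Ext1 lies on chromosome 15 from 53068261 to 53346183 (minus), Sulf1 on chromosome 1 from 12692430 to 12860372 (plus) and Sulf2 on chromosome 2 from 166073899 to 166155683 (minus). Among the 36 genes, Hs3st3a1 alone has exons that overlap those of another gene in that annotation.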

How the data were processed

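The 6 libraries of E13 submandibular gland RNA were prepared with an Illumina TruSeq kit, per the labels' protocols. TopHat2 2.0.13, Bowtie2 2.2.3, Cufflinks 2.2.1 and genome build mm10 are listed in the submitters' processing notes. The authors deposited FPKM per gene and per transcript, per the file headers. BB in a column name was read as blebbistatin, and an unnumbered column as the first replicate, since the other columns of each group are numbered from 2. The test used limma 3.58.1 (R 4.3.3) on log2(FPKM + 1), with an empirical Bayes trend and treatment as the only term, for the 11540 genes whose FPKM averaged 1 or more across libraries, and p-values were adjusted over all of them. Transcripts were tested alike, and transcript shares on the arcsine square root scale (genes with a summed mean of at least 5 FPKM, shares of 0.05 to 0.95). No count model was used, since FPKM are scaled. With 3 libraries a group an exact permutation test cannot go below 0.1, so none was used.

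The members and lists were chosen with earlier results of these data known. Full values are given for members with an unadjusted p under 0.05, for the most abundant member and that of smallest p in each role, and for Hs3st3a1, Hs3st3b1 and Hpse. For other lists the rule allowed up to 3 genes of smallest p. After values were seen, this was narrowed to those with an unadjusted p under 0.05, or else the 1 of smallest p. Ext1, Fgfr2, Fgf10, Csgalnact1, Kit and the FGF target genes other than Etv5 were named outside these rules. Alternatives were another pseudocount, other filters, median-of-ratios rescaling, quantile normalization, array weights, a replicate block and leaving out each library.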

Additional observations from a re-analysis of the deposited data

How the results depend on the processing

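No heparan sulfate gene, transcript or transcript share passed under any alternative run, and the smallest adjusted p of the 29 genes ranged from 0.0701 (with the replicate block) to 0.364 (without blebbistatin replicate 1). The count over all genes, 9 in the report, was 1 with no filter, 27 with a minimum of 5 FPKM, 2 after median-of-ratios rescaling, 14 after quantile normalization, 57 with array weights and 144 with the replicate block, and between 1 and 13 when 1 library was left out. Over all transcripts the count of 1 ranged from 1 to 11 when 1 library was left out. Over all shares the count of 0 became 2 with a minimum of 2 FPKM and ranged from 0 to 2 when 1 library was left out. The cause of these changes was not tested.

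When 1 library was left out, signs turned on the log2 scale for B3gat3 (-0.24 to 0.027), Ext2 (-0.0096 to 0.10), Ndst1 (-0.022 to 0.16), Sdc1 (-0.00070 to 0.14) and Gpc3 (-0.19 to 0.027). They also turned for Xylt2 (-0.15 to 0.0057), Extl3 (-0.085 to 0.013), Hs2st1 (-0.050 to 0.042) and Hs6st2 (-0.14 to 0.053). Among the core proteins they turned as well for Sdc2 (-0.15 to 0.080), Sdc3 (-0.14 to 0.0053), Gpc2 (-0.099 to 0.21) and Gpc6 (-0.19 to 0.046). Share differences changed sign for the Sulf2 transcripts of 3790 nt (-3.86 to 4.70 percentage points) and 3948 nt (-5.15 to 3.40). The same held for the Hs6st2 transcripts of 4672 nt (-19.9 to 4.46) and 4313 nt (-4.51 to 16.7). The replicate numbers are not stated to pair libraries. Deviations of same-numbered libraries correlated at 0.182, 0.0941 and 0.253 over genes, each library correlating best with its own number. With the replicate block 10 of the 29 genes (34.5%, beside 16.3% of all genes) had an unadjusted p under 0.05. Of these, Extl1, Glce, Hs3st1, Hs3st6 and Gpc1 were lower and Ext1, Hs6st1, Sulf1, Sulf2 and Gpc4 higher. For Sulf2 the unadjusted p was 0.00667 with the block (adjusted p = 0.134, limma) and 0.0669 without it (limma). Xylt1, Hpse and the 5 genes at up to 4 fragments were under the filter on low values, so the main test says nothing of them.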
